A study of Mus musculus with 111 samples.

Results

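The rows that carry Nr5a2 were followed across single mouse 2-cell embryos. A transcript row was taken where the authors' deposited comparison table pairs it with the gene name Nr5a2, which gave 6 transcripts, and the row listed under the Nr5a2 gene identifier itself (ENSMUSG00000026398.14) was added, so that 7 of 119358 rows were described. Knockdown embryos grew from germinal vesicle oocytes injected with 2 siRNAs against Nr5a2 at 20 µM each together with 150 ng per µl of H2B-rsEGFP marker RNA. Control embryos, titled NT, grew from oocytes given the control injection, with siRNAs also at 20 µM each and the same amount of H2B-EGFP marker RNA. All oocytes were B6129F1, were held in dbcAMP for 5 hours after injection, matured for 12 hours, were fertilized in vitro and were cultured in KSOM. Experiment 1 holds 16 knockdown and 24 control embryos, experiment 2 holds 16 and 7, and experiment 3 holds 23 and 25, which makes 55 knockdown and 56 control embryos in all. Each library is 1 whole embryo, prepared from polyadenylated RNA by Smart-seq2 with oligo dT priming, and the labels do not say which oocytes shared a female, so p-values measure only the spread between embryos.

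Nr5a2, also called LRH-1, belongs to the orphan nuclear receptors and recognises an extended AGGTCA element, which it contacts as a single molecule. In liver, pancreas and gonad it acts on genes of bile acid, digestive enzyme and steroid synthesis, and in embryonic stem cells on pluripotency genes such as Pou5f1. A receptor gene with several start sites can give proteins that share the DNA-binding and ligand-binding domains and differ at the amino end.

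The 6 transcripts lie on the minus strand of chromosome 1, within chr1:136842571-136960448 of GRCm38, and GENCODE M21 names them Nr5a2-201 to Nr5a2-206. Nr5a2-201 (ENSMUST00000027649.13) begins at the upstream start, has 9 exons and 4733 bases, codes for 560 amino acids and ends in a 3′ UTR of 2892 bases. Nr5a2-203 (ENSMUST00000192357.5) begins in the same first exon, skips a coding exon of 63 bases and codes for 539 amino acids in 1859 bases. Nr5a2-205 (ENSMUST00000192929.5) begins at an internal start, codes for 499 amino acids in 1756 bases, and is annotated only as far as its stop codon, with 0 bases of 3′ UTR. Nr5a2-202 (ENSMUST00000168126.6, 3446 bases) begins upstream of and runs into the third exon of Nr5a2-201, and also codes for 499 amino acids. Nr5a2-206 (ENSMUST00000195428.1, 679 bases) is a short fragment with 136 codons, and Nr5a2-204 (ENSMUST00000192587.1, 621 bases) is a retained-intron transcript with no coding sequence. Nr5a2-201 and Nr5a2-203 are told apart in the coding sequence by the junction behind the first exon. Each of the following junctions occurs in 1 of the 6 transcripts, with the first exon in lower case and the first 15 bases of the next exon in capitals.
Nr5a2-201: gacttacagctattgCGTCTGCACCAGGGT
Nr5a2-203: gacttacagctattgGTGCTGGGCTTCCGG

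The bases in front of the starts are shown because Nr5a2-201 and Nr5a2-205, whose levels and shares are compared here, begin at the upstream and the internal start. RefSeq (GRCm38.p6) gives the 250 bases before the upstream start as chr1:136960449-136960698 and those before the internal start as chr1:136953631-136953880, both on the minus strand. Capitals mark AGGTCA on either strand, the core of the element that the NR5A receptors bind.
Upstream start: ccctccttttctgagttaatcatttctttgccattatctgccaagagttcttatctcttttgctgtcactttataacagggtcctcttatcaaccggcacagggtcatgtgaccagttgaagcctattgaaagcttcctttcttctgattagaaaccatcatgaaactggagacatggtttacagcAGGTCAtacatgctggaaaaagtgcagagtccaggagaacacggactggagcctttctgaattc
Internal start: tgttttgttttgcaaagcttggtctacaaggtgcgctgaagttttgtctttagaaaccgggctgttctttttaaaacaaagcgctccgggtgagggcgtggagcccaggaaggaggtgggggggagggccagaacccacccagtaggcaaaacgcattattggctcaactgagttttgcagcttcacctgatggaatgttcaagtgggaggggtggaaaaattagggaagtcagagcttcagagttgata
The upstream window held 1 AGGTCA, no AAGGTCA (which contains AGGTCA) and 1 TATAAA, counting both strands, and had 43.2% G and C. The internal window held none of these letters and had 49.6% G and C. Among 32851 RefSeq promoter windows of that length, 14.0% held AGGTCA, 4.08% AAGGTCA and 12.4% TATAAA, so the match describes the sequence and marks no site of binding.

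The authors' counts per transcript are estimates in which reads shared by several transcripts are divided between them, so the sequence that belongs to a single transcript sets what each estimate rests on. Words of 31 bases found in no other Nr5a2 transcript made up 38.3% of Nr5a2-201, of which 1705 of 1802 lie in its 3′ UTR. In Nr5a2-202 they made up 15.0% and in Nr5a2-205 7.88%, all in the 5′ UTR. In Nr5a2-203 they were the 29 words across its own junction, 1.59% of its length. None of these words occurred in any other GENCODE M21 transcript. What sequence stands behind the gene identifier row is stated in none of the sources used here. Whether that row holds any of these words is therefore not known.

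**Figure D1:**
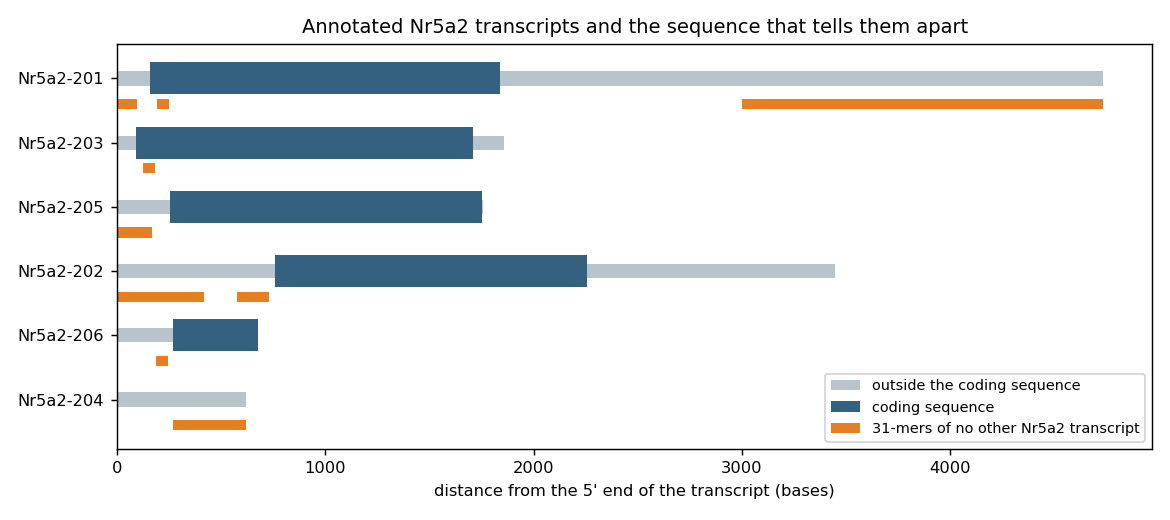
The 6 annotated Nr5a2 transcripts, drawn to scale as distance from their 5′ end in bases, with coding sequence as tall bars, the rest as thin bars, and the stretches covered by 31-base words of no other Nr5a2 transcript in orange below. The stretch of Nr5a2-201 lies mainly in its long 3′ UTR, while Nr5a2-205 and Nr5a2-202 are marked at their 5′ ends and Nr5a2-203 at 1 coding junction.

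Library totals ran from 1967966 to 21373056 estimated counts over the 111 embryos. The 6 transcripts together had 45.3 to 773 counts in knockdown embryos (median 224) and 77.9 to 2728 in control embryos (median 490). Levels are given as CPM, estimated counts relative to the total of the genes that passed the filter on low counts, after TMM scaling. For marker RNA the total of all genes was used, without this scaling. Marker RNA was at 31.6 to 364 CPM (median 166) in knockdown embryos of experiment 1, against 0 to 2.19 CPM (median 0.142) in control embryos of that experiment, although the labels give both the same injected amount. In experiment 2 it was at 11.9 to 809 CPM (median 356) in knockdown and 90.1 to 5413 CPM (median 903) in control embryos, and in experiment 3 at 0.494 to 100.4 CPM (median 29.2) and 2.92 to 517 CPM (median 119). The control embryos of experiment 1 held almost none of the marker that the labels name, so the fold changes of the Nr5a2 rows, the shares, the gene lists and the likeness are also given without that experiment. All 14 listed genes of the 2-cell stage, Zscan4c and Zfp352 among them, had a row, with a summed level of 295 to 4074 CPM (median 1211) in knockdown and 334 to 4848 CPM (median 1384) in control embryos. Of these 14, 12 passed the filter on low counts. The lowest were Gm4340, at means of 0.000677 and 0.000791 CPM, and Duxf3, at 3.13 and 1.74 CPM, in knockdown and control embryos. The others averaged 13.9 to 351 CPM in knockdown and 15.2 to 400 CPM in control embryos. Cumulus and granulosa cells, which surround the oocyte and themselves express Nr5a2, were searched with 14 markers. Their sum was 11.7 to 274 CPM (median 104) in knockdown and 25.4 to 179 CPM (median 102) in control embryos, 1 gene, Amhr2, made up most of it (mean 91.1 CPM in knockdown and 87.7 CPM in control embryos), and 11 of 14 were below the filter on low counts. Tnfaip6 averaged 8.46 CPM in knockdown and 8.30 CPM in control embryos and was above 0 in 110 of 111 embryos. Cyp19a1 averaged 2.60 and 2.19 CPM, Star 1.81 and 1.52 CPM, and Cyp11a1 1.02 and 1.42 CPM, in knockdown and control embryos. The other 9 averaged 0.00736 to 0.479 CPM in knockdown and 0.0346 to 0.603 CPM in control embryos, with Amh the lowest, and none of the 14 was at 0 in every embryo.

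Nr5a2 RNA, summed over the 6 transcripts, was lower in knockdown embryos in each of the 3 experiments. In experiment 1 it was 21.7, 51.4 and 83.6 CPM (lowest, median, highest) in knockdown embryos, against 65.5, 114 and 234 CPM in control embryos. In experiment 2 the same values were 14.8, 47.1 and 119 CPM in knockdown embryos, against 32.0, 102 and 195 CPM in control embryos. In experiment 3 they were 13.2, 42.3 and 77.7 CPM in knockdown embryos, against 42.0, 76.8 and 227 CPM in control embryos. The arms overlapped in every experiment, yet 52 of 55 knockdown embryos lay below the control median of their own experiment, and 26 lay below its lowest control embryo. Each library is a whole embryo, so a loss in both cells and a deeper loss in 1 of the 2 cells cannot be told apart.

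The mean over all embryos was 48.6 ± 19.8 CPM in knockdown (SD, n = 55) and 109 ± 48.9 CPM in control (SD, n = 56). With experiment as a factor, edgeR's quasi-likelihood test put the log2 fold change at -1.17 (SE 0.12, Benjamini-Hochberg adjusted p = 3.71e-12), the smallest p among 13451 features tested, of which 0.468% were called lower. Experiment 1 had a change of -1.31 on this scale (SE 0.21, adjusted p = 9.31e-06), with 0.126% of features called lower, and experiment 3 one of -1.08 (SE 0.18, adjusted p = 2.7e-04), with 0.0669% called lower. In experiment 2, with its 7 control embryos, it was -1.13 (SE 0.27, adjusted p = 0.761). That test called 0% of features lower, with 301 of 13451 lower at an unadjusted p under 0.05. The fold change did not differ detectably between the experiments (edgeR, adjusted p = 0.983, with 0.0149% of features called), and without experiment 1 it was -1.09 (adjusted p = 2.58e-05).

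**Figure D2:**
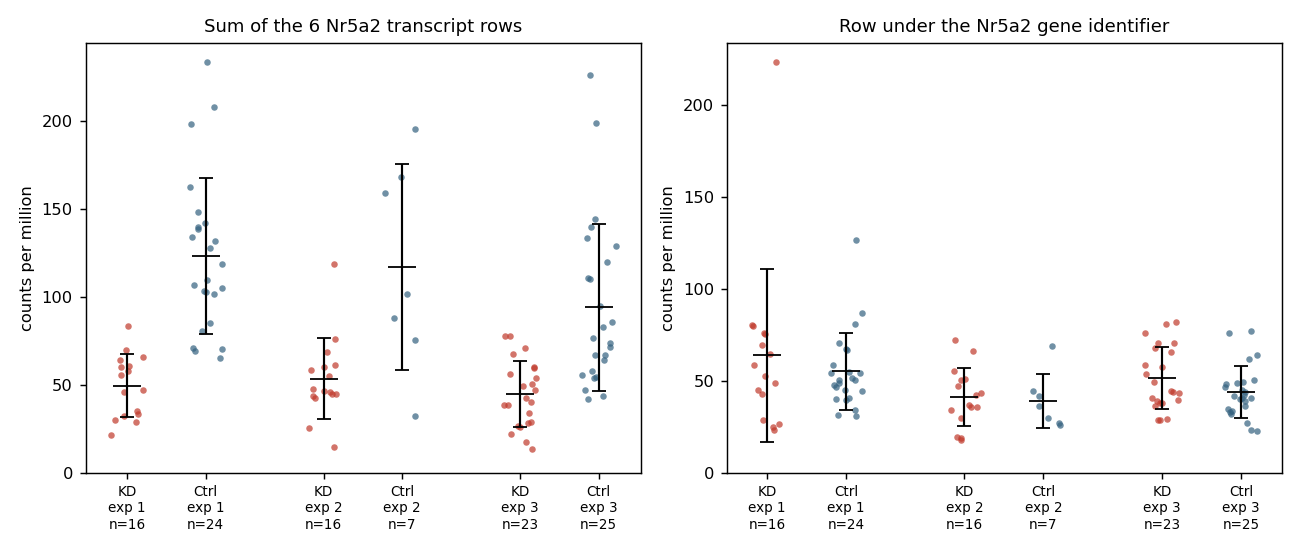
Level of Nr5a2 per embryo in CPM, as the sum of the 6 transcript rows (left) and in the row under the gene identifier (right), for knockdown (KD) and control (Ctrl) embryos of each experiment; points are embryos and black bars the mean ± SD. The transcript sums of knockdown embryos lie mostly below those of the control embryos beside them, with medians of 42.3 to 51.4 CPM against 76.8 to 114 CPM, whereas the points of the gene identifier row overlap over most of their range, with 1 knockdown embryo of experiment 1 at 224 CPM.

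The internal-start transcript Nr5a2-205, which codes for the shorter receptor, showed the clearest fall. In experiment 1 it was at 4.19, 14.7 and 29.3 CPM (lowest, median, highest) in knockdown embryos, against 20.0, 57.5 and 109 CPM in control embryos. In experiment 2 it was at 6.72, 21.2 and 72.9 CPM in knockdown embryos, against 22.2, 54.2 and 100.4 CPM in control embryos. In experiment 3 it was at 0, 11.5 and 46.0 CPM in knockdown embryos, against 18.2, 36.2 and 96.7 CPM in control embryos. The arms overlapped, but 53 of 55 knockdown embryos were below the control median of their experiment and 39 were below its lowest control embryo. On the log2 scale it changed by -1.68 (SE 0.17, edgeR adjusted p = 2.25e-12), in a test that called 0.0862% of 25510 transcripts lower and 0.361% in either direction. Within experiments it was called at -1.92 (SE 0.29, adjusted p = 8.05e-06) in experiment 1, where 0.0353% of transcripts were called lower, and at -1.60 (SE 0.25, adjusted p = 1.45e-04) in experiment 3, where 0.0118% were; in experiment 2 it was at -1.40 (SE 0.37, adjusted p = 0.519). Without experiment 1 it was at -1.55 (adjusted p = 1.03e-04). Its mean level in knockdown embryos was 26.9% of the control mean in experiment 1, 37.8% in experiment 2 and 32.8% in experiment 3. The authors' deposited table over all embryos gives it a log2 fold change of -1.56 and an adjusted p of 1.68e-18.

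Nr5a2-203, the upstream-start form without the 63-base exon, also fell. It was at 0, 13.0 and 33.0 CPM (lowest, median, highest) in knockdown embryos of experiment 1, against 13.3, 35.8 and 74.8 CPM in control embryos. In experiment 2 the values were 3.03, 14.9 and 35.8 CPM in knockdown embryos, against 2.42, 26.1 and 75.4 CPM in control embryos, and in experiment 3 they were 0, 11.8 and 29.8 CPM in knockdown embryos, against 3.08, 20.0 and 78.2 CPM in control embryos. The arms overlapped, with 51 of 55 knockdown embryos below the control median of their experiment. Its log2 fold change of -1.29 (SE 0.29) passed with edgeR at an adjusted p of 0.0133. Leaving out experiment 1 ended the call (-1.17, adjusted p = 0.491), as did leaving out experiment 3 (-1.42, adjusted p = 0.118) or taking embryo number as a block (-1.79, adjusted p = 0.326), while the direction held in all 9 alternatives, from -2.45 to -1.17. The far end came from limma-voom (-2.45, adjusted p = 8.16e-06) and from limma on the authors' batch-corrected values (-2.37, adjusted p = 5.94e-05).

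Nr5a2-202, the form that starts next to the third exon and shares its protein length with Nr5a2-205, did not pass the test in the design chosen (log2 fold change -1.76, SE 0.55, adjusted p = 0.185). It was scarce, at 0 in 27 of 55 knockdown and 12 of 56 control embryos. Its median was 0.846 CPM in knockdown embryos of experiment 1, against 11.1 CPM in control embryos. In experiment 2 the medians were 0.0124 CPM in knockdown and 4.59 CPM in control embryos, and in experiment 3 they were 0 and 2.06 CPM. Both arms reached 0 in every experiment. limma-voom (-2.67, adjusted p = 0.00808), the fit without a filter on low counts (adjusted p = 0.0383) and limma on the authors' batch-corrected values (adjusted p = 0.0247) called it lower. Without experiment 1 it was at -1.26 (adjusted p = 1.00).

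Nr5a2-201, the longest form with the longest 3′ UTR, did not pass the test in either direction. In experiment 1 it was at 0, 18.1 and 45.7 CPM (lowest, median, highest) in knockdown embryos, against 0, 16.6 and 47.6 CPM in control embryos. In experiment 2 it was at 3.57, 10.7 and 19.2 CPM in knockdown embryos, against 3.08, 13.5 and 25.3 CPM in control embryos, and in experiment 3 at 0, 15.8 and 32.1 CPM in knockdown embryos, against 5.03, 20.0 and 37.6 CPM in control embryos. The arms overlapped in every experiment, with 1 knockdown embryo below the lowest control embryo of its experiment, and 35 of 55 knockdown embryos were below the control median of their experiment. On the log2 scale the change was -0.073 (SE 0.20) with an adjusted p of 1.00, and the fit without experiment 3 turned its sign (0.053, adjusted p = 1.00). Without experiment 1 it was at -0.25 (adjusted p = 1.00).

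Of the 6 transcripts, 4 passed the filter on low counts and 2 of these 4 were called lower, against 0.0862% of 25510 transcripts tested. The others, Nr5a2-204 and Nr5a2-206, were above 0 in 6 of 55 knockdown embryos each and in 3 and 1 of 56 control embryos, never above 1.33 CPM. The change of the 4 tested transcripts did not differ detectably between the experiments: their unadjusted p ran from 0.339 to 0.830, while 0.0157% of transcripts were called. Nr5a2-202 passed the test in no single experiment (adjusted p of 0.272 to 1.00): its log2 fold change was -2.62 (SE 0.92) for experiment 1, -0.45 (SE 1.15) for the second and -1.55 (SE 0.76) for the third.

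**Figure D3:**
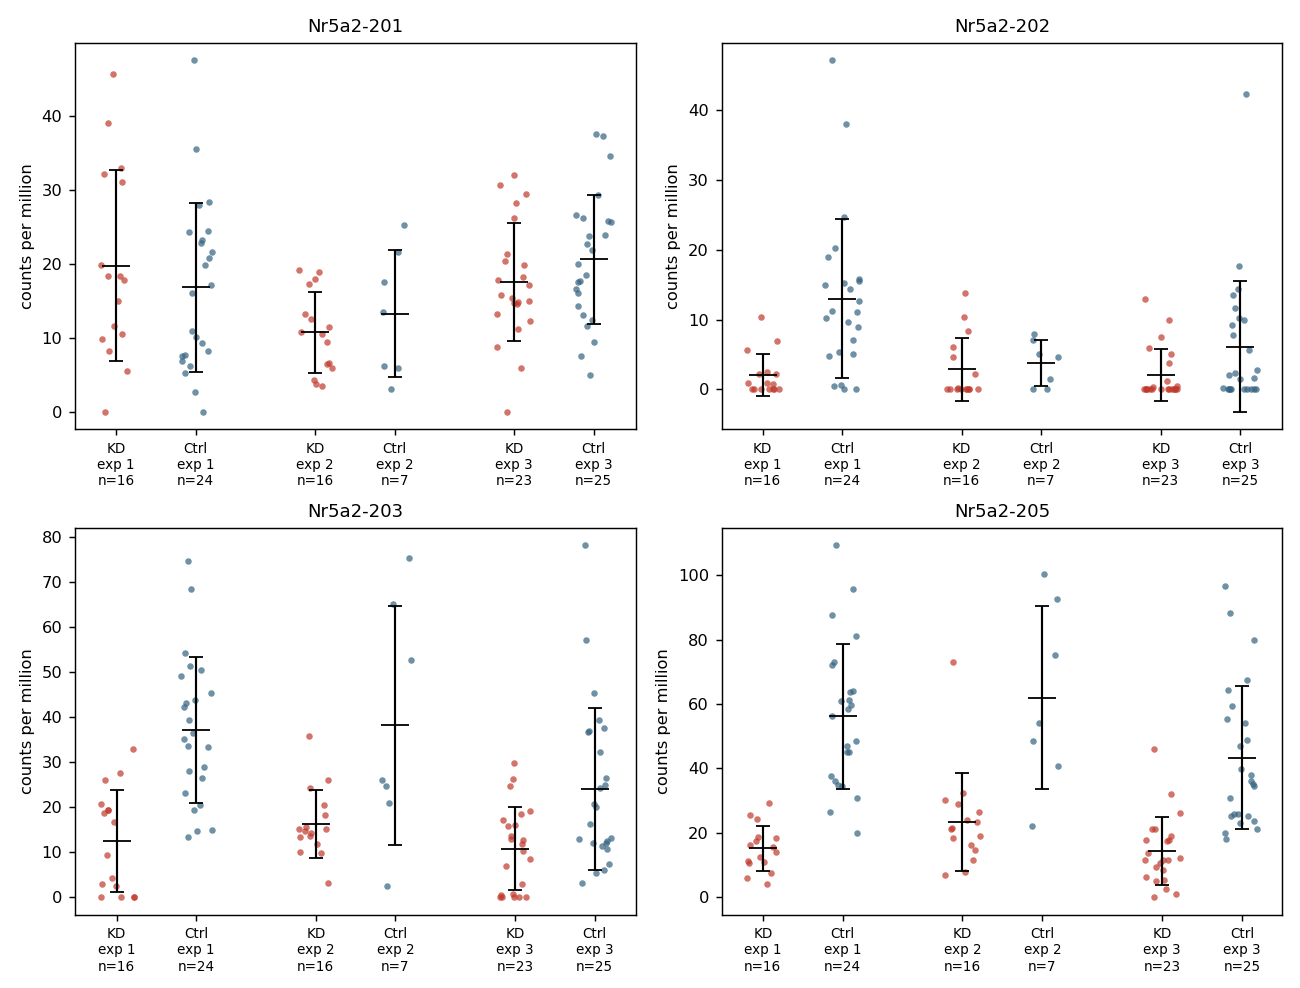
Level of the 4 tested Nr5a2 transcripts per embryo in CPM, in knockdown (KD) and control (Ctrl) embryos of each experiment; points are embryos and black bars the mean ± SD. Knockdown embryos lie low for Nr5a2-205 and Nr5a2-203, many sit at 0 for Nr5a2-202, and the arms overlap over most of their range for Nr5a2-201.

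**Figure D4:**
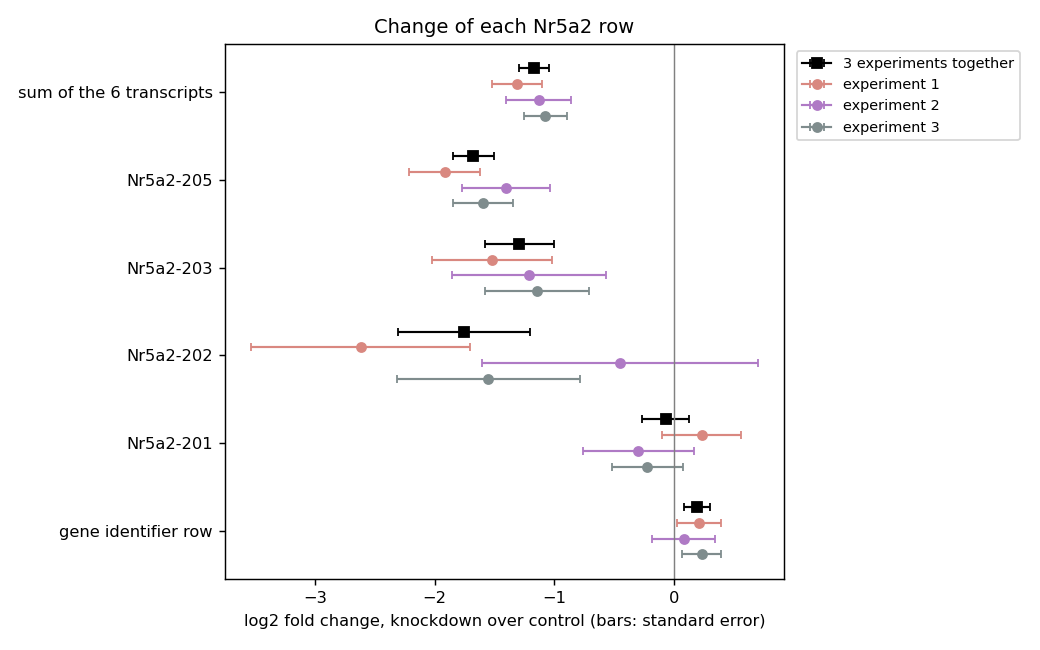
Log2 fold change of knockdown over control for the transcript sum, the 4 tested transcripts and the gene identifier row, with standard errors, from the 3 experiments together (black squares) and from each experiment. The sum, Nr5a2-205 and Nr5a2-203 lie left of 0 in every experiment, from -1.92 to -1.08, while Nr5a2-201 and the gene identifier row stay near 0.

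Levels of different transcripts can be set side by side only per length. The lengths are those of the annotation, with 2892 bases of 3′ UTR for Nr5a2-201, 149 for Nr5a2-203 and 0 for Nr5a2-205. An order of transcripts per kilobase rests on these lengths, and other 3′ ends were not tested. In CPM per kilobase, Nr5a2-205 averaged 9.77 ± 6.75 in knockdown and 29.1 ± 13.6 in control embryos (SD, n = 55 and n = 56). Nr5a2-203 averaged 6.93 ± 5.17 in knockdown and 16.9 ± 10.4 in control embryos on that scale. Nr5a2-201 averaged 3.43 ± 2.05 and 3.82 ± 2.14, and Nr5a2-202 averaged 0.660 ± 1.08 and 2.54 ± 3.01, in knockdown and control embryos. Nr5a2-205 had the highest mean and Nr5a2-203 the next in both arms of every experiment. Of the others, Nr5a2-201 was above Nr5a2-202 in every group but the control embryos of experiment 1, where they averaged 3.56 and 3.77.

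The makeup of Nr5a2 RNA within an embryo was read as the share of each transcript in the counts of the 6. Nr5a2-205, the most abundant transcript over control embryos, held 33.6% ± 14.6 in knockdown and 46.8% ± 7.47 in control embryos (SD, n = 55 and n = 56). In experiment 1 its share was 11.9%, 26.2% and 81.6% (lowest, median, highest) in knockdown embryos, against 29.8%, 45.6% and 57.0% in control embryos. In experiment 2 it was 25.7%, 41.0% and 61.4% in knockdown embryos, against 44.7%, 53.9% and 69.3% in control embryos. The share in experiment 3 was 0%, 29.7% and 59.3% in knockdown embryos, against 31.5%, 44.9% and 57.0% in control embryos. The arms overlapped, and 50 of 55 knockdown embryos lay below the control median of their experiment. Weighted over the experiments, the share was 14.9 percentage points lower in knockdown embryos (difference -14.9, SE 2.10; two-sided permutation of the arm within experiments, p = 1e-05, the smallest that 100000 resamples can give). By experiment the difference was -12.9 points (SE 3.95, permutation p = 0.00208) in experiment 1, -13.1 (SE 3.98, permutation p = 0.00355) in experiment 2 and -17.2 (SE 3.00, permutation p = 1e-05) in experiment 3. Without experiment 1 it was -16.0 points (SE 2.41, permutation p = 1e-05). The transcript was picked by its counts in these same control embryos. The permutations kept that pick, so these p-values do not account for it.

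The share of Nr5a2-201 was 37.9% ± 24.5 in knockdown and 19.4% ± 11.4 in control embryos. Nr5a2-203 held 24.1% ± 15.6 and 27.0% ± 9.14, and Nr5a2-202 held 4.14% ± 6.91 and 6.74% ± 6.10, in knockdown and control embryos. These are shares of counts, in which a long transcript weighs more, so they compare a transcript between the arms and do not rank the transcripts. Per kilobase of annotated length, the transcript with the highest level in an embryo was Nr5a2-205 in 32, Nr5a2-203 in 17 and Nr5a2-201 in 6 of 55 knockdown embryos, against 54, 2 and 0 of 56 control embryos. Nr5a2-205 led in 8 of 16 knockdown embryos of experiment 1, 12 of 16 of experiment 2 and 12 of 23 of experiment 3. Transcripts of the upstream start, Nr5a2-201 and Nr5a2-203, together held 62.0% ± 17.3 in knockdown and 46.4% ± 9.43 in control embryos. Most words of Nr5a2-201 alone lie in its 3′ UTR (1705 of 1802), and Nr5a2-205 is annotated with 0 bases of 3′ UTR. Reads from that UTR cannot be counted for Nr5a2-205, whichever start their RNA used, so these shares do not measure start use.

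A test of unequal change among the transcripts of a gene, run over all genes with edgeR's diffSpliceDGE, put Nr5a2 at rank 4 of 6286 genes, but it did not pass the adjustment (unadjusted p = 7.38e-05, adjusted p = 0.116, with 0.0318% of genes called). Nr5a2-201 was 1.09 (SE 0.28) above and Nr5a2-205 -0.51 (SE 0.24) from the change of the gene on the log2 scale. Neither passed the adjustment over 19008 transcripts, of which 0% were called and 262 had an unadjusted p under 0.05. With a stricter filter, at least 10 counts in at least 7 embryos, the gene passed (adjusted p = 0.0200), and without experiment 1 its adjusted p was 1.00. In experiment 1 alone it was 0.297, in a fit that called 0.0155% of genes. This test and the permutation of the share of Nr5a2-205 thus differed in call; the isoform for the permutation was picked by its counts in control embryos.

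**Figure D5:**
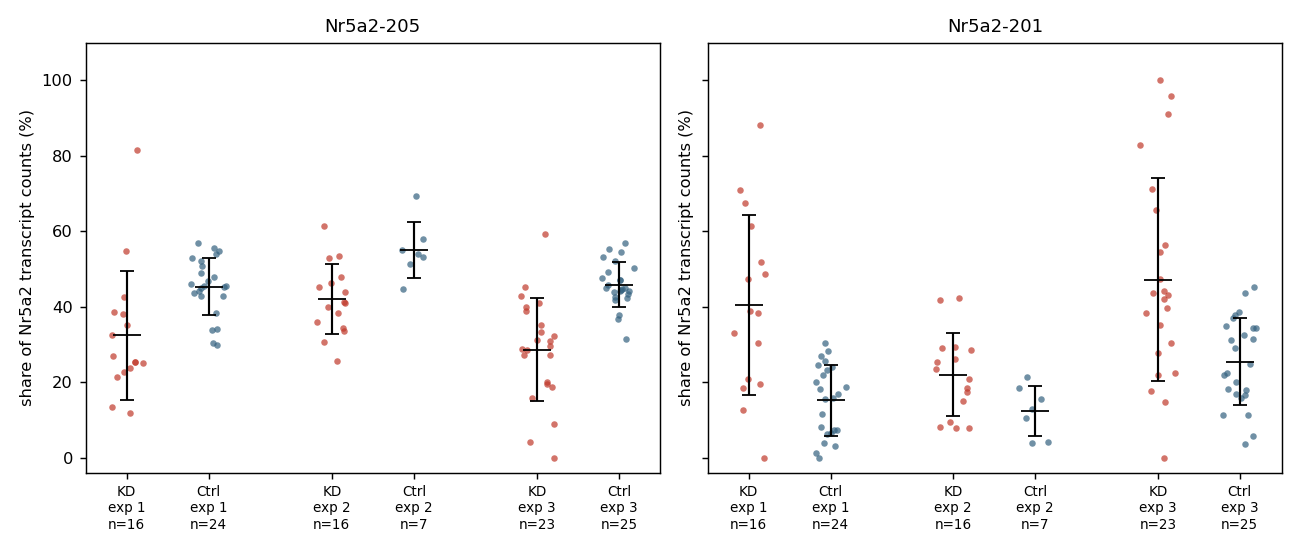
Share of Nr5a2-205 (left) and Nr5a2-201 (right) in the counts of the 6 Nr5a2 transcripts, in percent per embryo, for knockdown (KD) and control (Ctrl) embryos of each experiment; points are embryos and black bars the mean ± SD. Shares of knockdown embryos spread more widely, lie lower for Nr5a2-205 (medians of 26.2% to 41.0% against 44.9% to 53.9%) and higher for Nr5a2-201.

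The row under the gene identifier was not called in either direction. In experiment 1 it was at 23.1, 55.7 and 224 CPM (lowest, median, highest) in knockdown embryos, against 30.7, 50.4 and 126 CPM in control embryos. In experiment 2 it was at 18.0, 39.6 and 72.4 CPM in knockdown embryos, against 26.1, 36.1 and 68.7 CPM in control embryos, and in experiment 3 at 28.8, 44.2 and 81.7 CPM in knockdown embryos, against 22.7, 41.8 and 77.2 CPM in control embryos. The arms overlapped in every experiment: 23 of 55 knockdown embryos were below the control median of their experiment and 7 below its lowest control embryo, while the highest value was that of a knockdown embryo. Its log2 fold change was 0.19 (SE 0.11, edgeR adjusted p = 0.632), and without experiment 1, in the fit over transcripts, it was 0.18 (adjusted p = 1.00). limma on the authors' batch-corrected values put it at -0.017 (adjusted p = 0.972), and the authors' deposited table over all embryos at 0.22 with an adjusted p of 0.651.

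In estimated counts, this row was above every transcript row in 52 of 55 knockdown and 25 of 56 control embryos, and above their sum in 24 of 55 knockdown and 2 of 56 control embryos. The log2 ratio of the transcript sum to this row averaged -0.067 ± 0.85 in knockdown and 1.13 ± 0.62 in control embryos. Adding the row to the sum brought the gene's log2 fold change to -0.61 (SE 0.099, adjusted p = 2.96e-05). Entered as a further transcript in the test of unequal change, an alternative chosen after the data were seen, it made Nr5a2 the first of 6286 genes (adjusted p = 4.95e-08), with Nr5a2-205 called at -1.07 (SE 0.22, adjusted p = 0.0288) relative to the gene.

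Among control embryos, the transcript sum had medians of 114 CPM in experiment 1, 102 CPM in experiment 2 and 76.8 CPM in experiment 3. These 3 groups did not differ past the threshold (edgeR, adjusted p = 0.283), in a comparison that called 10.9% of features. The pair farthest apart, experiment 3 over experiment 1, had a log2 difference of -0.39 (SE 0.18, adjusted p = 0.162). Neighbours in this order could not be told apart: experiment 2 over 1 had -0.072 (SE 0.27, adjusted p = 0.944) and experiment 3 over 2 had -0.32 (SE 0.26, adjusted p = 0.705). The 4 tested transcripts had adjusted p of 0.552 to 0.707 in the same comparison, which called 5.41% of transcripts. Knockdown embryos had medians in the same order, 51.4, 47.1 and 42.3 CPM, and each of these lay below every control median.

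Technical measures and the gene identifier row were set against the Nr5a2 sum within each of the 6 groups, of 7 to 25 embryos. The 24 relations were with marker RNA, library total, mitochondrial share and the gene identifier row. Pearson's r ran from -0.49 to 0.76, and the smallest adjusted permutation p was 0.262. For the mitochondrial share, r ran from -0.46 in knockdown embryos of experiment 3 to 0.27 in those of experiment 2. The mitochondrial share was 8.69% ± 1.94 in knockdown and 6.82% ± 1.17 in control embryos of experiment 3, and 8.69% ± 2.62 and 8.39% ± 2.41 in those of experiment 1; its part in the Nr5a2 difference was not tested.

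The genes whose level over the 56 control embryos was most like that of Nr5a2, by Pearson's r of log2 CPM within groups, are named as a description out of 7205 ranked genes. They were Nr2c2 (r = 0.75), an orphan nuclear receptor, Hipk1 (0.73), a nuclear kinase, Pabpn1 (0.72), which binds poly(A) tails in the nucleus, Rimklb (0.72), a glutamate-ligating enzyme, and Glul (0.71), glutamine synthetase. The lowest were Runx1t1 (-0.69), a transcriptional corepressor, Iscu (-0.64), an iron-sulfur cluster scaffold, and Yipf6 (-0.63), a Golgi membrane protein. The median gene had r = 0.032. Library totals differed between embryos and RNA quality was not assessed, and the part of either in these values was not tested. None of these 8 genes was called in knockdown embryos by edgeR, where their log2 fold changes ran from -0.24 for Hipk1 to 0.13 for Iscu and none had an unadjusted p under 0.05; of all features, 1.1% were called and 1280 of 13451 had such a p. Over the 32 control embryos of experiments 2 and 3, the 5 had r of 0.71 to 0.84 and the 3 of -0.73 to -0.69. There the 5 ranked from 2 (Pabpn1) to 47 (Glul) of 7205. These 32 are among the 56 embryos by which the genes were picked, so the values are no separate check.

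Genes that work with or under Nr5a2 gave 1 call. Among the 23 listed coregulators, 16 passed the filter and 0 were called by edgeR, 0 by DESeq2 and 0 by limma-voom, with 1.1% of all features called by edgeR. At an unadjusted p under 0.05 there were 0 of the 16, against 1280 of 13451 features. Their median log2 fold change was 0.00095, against 0.019 for all features tested. The atypical receptors Nr0b1 and Nr0b2, which bind and repress Nr5a2, were below the filter. Nr0b1 was above 0 in 1 knockdown embryo and in 0 control embryos, and Nr0b2 averaged 0.0820 CPM in knockdown and 0.111 CPM in control embryos.

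Of 35 genes known as targets in liver, pancreas, gonad or embryonic stem cells, 21 passed the filter, 0 were called lower and 1 higher by edgeR (1 called by DESeq2 and 1 by limma-voom; 2 at an unadjusted p under 0.05), with 0.632% of all features called higher. Pou5f1 was at 105 and 103 CPM (log2 fold change 0.032, adjusted p = 0.987) and Esrrb, a further orphan receptor, at 22.1 and 17.6 CPM (0.35, adjusted p = 0.498), in knockdown and control embryos. The median of the list was 0.019, the same as for all features to 2 digits.

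Of 24 genes of siRNA and miRNA handling, 23 were tested and 0 were called by edgeR, 0 by DESeq2 and 0 by limma-voom, with 1.1% of all features called by edgeR and 2 of the 23 at an unadjusted p under 0.05, against 1280 of 13451 features. Pan3, a subunit of a poly(A) nuclease, had the smallest p (log2 fold change 0.20, adjusted p = 0.349), and Ago2, the slicer, was at 70.7 CPM in knockdown and 65.5 CPM in control embryos (adjusted p = 0.960). Of the 3 nearest protein-coding genes on each side of Nr5a2 on chromosome 1, 6 in all, 4 were tested (Ddx59, Kif14, Zfp281 and Nek7) and 0 were called by edgeR, 0 by DESeq2 and 0 by limma-voom, with 0 at an unadjusted p under 0.05. Zfp281, a zinc finger factor and the nearest neighbour on the side of the transcript end, was at 157 CPM in knockdown and 182 CPM in control embryos (log2 fold change -0.14, adjusted p = 0.825). Without experiment 1, a fit chosen after the data were seen, edgeR called 0.171% of 13476 features, 0 of the 16 coregulators, 1 of the 21 targets (higher), 0 of the 23 genes of siRNA and miRNA handling and 0 of the 4 neighbours; 862 features and 0, 1, 0 and 0 of these genes had an unadjusted p under 0.05.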

How the data were processed

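Smart-seq2 libraries of single embryos were quantified per transcript. Per the submitters' processing notes, the tools were DESeq2 1.32.0, R 3.5.1, kallisto 0.46.1, Trim Galore 0.6.2 and bcl2fastq; hg19 and mm10 are named as builds with no role. Unnormalized estimated counts per transcript, as deposited by the authors, were the main input. A second deposited table holds batch-corrected values, used as a score with no stated method. Log2 fold changes and p-values per transcript from DESeq2 stand in tables the authors deposited, with a mean normalized signal that was not printed.

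Transcripts were summed to 36134 genes and the sums rounded. Transcripts without a gene (1726, a median of 0.567% of counts) were left out, and the gene identifier row was kept as a separate feature. Tests used edgeR 4.0.16 in R 4.3.3, with limma 3.58.1, after TMM scaling and filterByExpr by arm: experiment as a factor, quasi-likelihood F-test, Benjamini-Hochberg over all features at 0.05. CPM use TMM-scaled totals of the genes that passed the filter. Totals over all rows, unscaled, were 1967966 to 21373056 counts. Shares were permuted 100000 times. Isoform sequences came from GENCODE M21, in which 97.4% of the table's transcript IDs have the same version. Alternatives were DESeq2, limma-voom, library totals, no or a stricter filter, each experiment left out, an embryo-number block, other denominators and the authors' batch-corrected values. On simulated counts with 200 changed features, the gene test called 91 of 100 genes changed 2-fold and 50 of 100 changed 1.5-fold, over 13171 genes; the transcript test called 50 and 29 of 100 over 23312 transcripts, and the share test 5 of 66 and 0 of 65 over 16667 transcripts. Members and lists were chosen with earlier results of these data known. Named genes followed a written rule: the Nr5a2 rows, the 5 most and 3 least similar genes in control embryos, the nearest genes, and up to 2 called members of each list and direction, else the member with the smallest p. Nr0b1, Nr0b2, Pou5f1, Esrrb and Ago2 were added after their values were seen. The highest Pearson's r between 2 embryos was 0.922, so each library was counted once. Counts cover no molecular identifiers. The siRNA sequences are not given in the sources used here. For some listed genes, values are not reported here.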

Additional observations from a re-analysis of the deposited data

Results flagged for a closer look

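In the control embryos of experiment 2 (n = 7), 1 embryo stood apart in the row under the gene identifier, at 68.7 CPM against 26.1 to 44.3 CPM in the other 6. Its gap to the nearest embryo exceeded Dixon's limit, which chance alone passes in about 1 in 20 groups. The transcript sum of that embryo was 168 CPM, within the range of its group.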

How the results depend on the processing

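The fold change of the transcript sum kept its direction and call in all 10 alternatives (log2 fold change -1.33 to -0.61), that of Nr5a2-205 in all 9 (-2.02 to -1.55), and the share difference of Nr5a2-205 in the 7 that give a test (-16.8 to -13.0 points); on counts pooled per group, with no test, it was -14.5 points. The count of Nr5a2 transcripts called lower, 2 in the design chosen, was 1 without experiment 1, 1 without experiment 3 and 1 with the embryo-number block, and otherwise 2 or 3. The test of unequal change gave F = 7.42; it passed with the stricter filter (F = 7.41) and with the gene identifier row as a transcript (F = 15.3, chosen after the data were seen). Signs turned for Nr5a2-201 without experiment 3 (0.053) and for the gene identifier row on batch-corrected values (-0.017), neither called. The cause of these changes was not tested. Whether embryo numbers pair the arms was not tested against a rate for unpaired embryos. Over 46 pairs, r had a median of 0.052, 16 had r over 0.1 and 5 knockdown embryos matched best with their own number. With this replicate block the transcript sum was at -1.12 (adjusted p = 1.79e-05), the shares test at an adjusted p of 0.268 and the share difference at -14.3 points (permutation p = 1e-05), while calls over all features went to 19, against 148 without it. The embryo with the fewest Nr5a2 counts had 45.3, so its shares rest on few counts.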
